A study of Mus musculus with 2 samples.

Results

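Alveolar type I (AT1) cells were taken as all cells that carried the authors' annotation "AT1 Cells" in the table of cells from 2 lung libraries. They numbered 519 of 18397 cells, 185 of 8793 cells in the control diet (CD) library and 334 of 9604 cells in the high-fat diet (HFD) library. The study used droplet-based single-cell RNA sequencing to ask whether alveolar type II (AT2) cells take part in the effect of a diet rich in fat on palmitate in the lung. Female BALB/c mice started either diet at 4 weeks of age and stayed on it for 16 weeks, so that both groups were 20 weeks old. Fat, protein and carbohydrate supplied 13%, 27% and 60% of the energy of CD and 60%, 20% and 20% of that of HFD. Each diet was represented by 1 library with a target of 10000 cells, and how many mice each library pooled was not stated in the sources used here. The labels name no transgene and no treatment other than diet. The labels name a droplet kit that reads transcripts from the 3' end, and the study's methods one that reads them from the 5' end.

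AT1 cells are large, very thin epithelial cells that line most of the alveolar surface, and gases cross them to reach the capillaries. They lie on a basement membrane shared with the endothelium, are joined by tight junctions and take part in ion and water transport across the alveolar wall. Together with AT2 cells, which make surfactant and can give rise to AT1 cells after injury, they form the alveolar epithelium. Their flat shape and wide extensions are known to make them hard to release intact by enzymatic digestion.

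For each cell the files gave its library, fine cluster, number of unique molecular identifiers (UMIs, each counting 1 captured transcript), number of detected genes, percent of UMIs from mitochondrial genes and place in a 2-dimensional UMAP map. The expression of single genes in these cells was not analysed here, so the AT1 name is the authors' and could not be set against marker levels. The libraries held 42470977 UMIs in CD and 50679251 in HFD, with a median of 3356 and 3591 UMIs per cell. The lowest count in the table was 1000 UMIs in CD and 1001 in HFD, which is above the minimum that the study's methods state. Medians, quartiles and shares of shallow AT1 cells all rest on where this limit lies. The 95% intervals given throughout cover counting error only, cells are not replicates, and no test between the diets was possible with 1 library each. A total of 27 cell barcodes occurred in both libraries, and 0 of the 519 AT1 cells carried one of them.

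The gene table listed all 5 AT1 marker genes as highly variable, a flag held by 5.19% of its 19278 genes. Ager encodes the receptor for advanced glycation end products, a membrane protein of the AT1 basal surface (ENSMUSG00000015452, GRCm38 chromosome 17, 34597862 to 34600936, plus strand). Pdpn encodes podoplanin, a glycoprotein of the apical membrane (ENSMUSG00000028583, chromosome 4, 143267431 to 143299564, minus strand). The water channel gene Aqp5 lies on chromosome 15 (ENSMUSG00000044217, 99590782 to 99594829, plus strand). Hopx encodes a small homeodomain protein that acts as a transcriptional cofactor (ENSMUSG00000059325, chromosome 5, 77086988 to 77115121, minus strand). The last of the 5, Rtkn2, encodes a protein of the rhotekin family (ENSMUSG00000037846, chromosome 10, 67979570 to 68059740, plus strand). All 5 are protein-coding genes, and the coordinates span the whole gene in GENCODE M21.

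Of 25 further genes known from AT1 cells, 18 carried the flag and 7 did not. Among the flagged genes were the junction and membrane genes Cldn18 (a tight junction claudin), Emp2 (a tetraspan membrane protein) and Gprc5a (an orphan receptor induced by retinoic acid). Matrix genes with the flag were Col4a3 and Col4a4, which encode basement membrane collagen chains, Lama3, a laminin chain, Spock2, a proteoglycan, and Timp3, an inhibitor of metalloproteinases. The secreted signals Vegfa, which acts on the capillary endothelium, Sema3e, a semaphorin, and Igfbp2, which binds insulin-like growth factors, were flagged as well. So were Scnn1a, a subunit of the epithelial sodium channel, Akap5, a kinase anchoring protein, the keratin gene Krt7, the cytochrome gene Cyp2b10, the calcium-binding S100a6, and Lmo7 and Limch1, which encode LIM domain proteins.

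The 7 genes without the flag were Cav1 and Cav2, which encode caveolins, Clic5, of the chloride intracellular channel family, the tetraspanin gene Tspan8, the growth factor gene Bmp4, Agrn, which encodes the matrix proteoglycan agrin, and Ahnak, which encodes a large scaffold protein. All 6 AT2 markers, all 5 ciliated markers and all 3 club cell markers were flagged too, so the flag did not set AT1 markers apart. Outside the epithelium, the flag was held by 4 of 4 fibroblast, 2 of 3 leukocyte, 2 of 3 mesothelial and 0 of 4 endothelial markers. Per the study's methods, flagged genes were the most variable ones above a minimum level of expression. Mitochondrial, ribosomal protein and cell cycle genes had been left out. A gene may therefore lack the flag for reasons other than low variation. The flag rests on all cells of both libraries and gives no level in AT1 cells, no cell type and no effect of diet.

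All 519 AT1 cells formed 1 fine cluster, number 16. The authors clustered cells on the UMAP plane and named whole clusters, so that the cluster holds no other cell type by construction. In this cluster 185 cells came from CD and 334 from HFD, which is 2.10% (1.81 to 2.43) and 3.48% (3.12 to 3.86) of the libraries. The share was 1.37 percentage points higher in HFD, at a ratio of 1.65 (1.38 to 1.99), and the upper limit of CD lay below the lower limit of HFD. This was so for 13.7% of all 51 fine clusters. Among cells with at least 3000 UMIs the ratio was 1.23 and its interval included 1 (0.961 to 1.57). Over all depths, AT1 cells had the highest ratio of the 17 annotated cell types. Ciliated cells followed at 1.54 (0.966 to 2.48) and AT2 cells at 1.45 (1.28 to 1.65), with intervals that overlapped that of AT1 cells. In percentage points, the shares of fibroblasts (2.43) and AT2 cells (2.05) were higher in HFD by more than that of AT1 cells. As shares of a library sum to 100%, more AT1 cells and fewer cells of other types cannot be told apart.

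On the UMAP map the AT1 cells formed an island of their own. Every one of the 15 nearest neighbours of each of the 519 cells was an AT1 cell, on the same plane that had defined the cluster. The closest cell of another type lay 0.218 UMAP units away, whereas no AT1 cell was more than 0.00965 units from its nearest AT1 cell. The whole map spanned 0.220 to 2.04 on the x axis and 0 to 2.05 on the y axis, and the AT1 island took up 1.43 to 1.55 on x and 1.18 to 1.28 on y. For 336 AT1 cells (64.7%) the nearest cell of another type was a myofibroblast, for 139 (26.8%) a basophil, for 31 (5.97%) a fibroblast and for 13 (2.50%) a pericyte. For 0 of them was it an AT2 or a ciliated cell, although distances between islands of such a map have no scale.

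Cells of both diets lay intermixed within the island. HFD cells were 64.4% of all AT1 cells, 60.9% of the AT1 neighbours of CD cells and 66.5% of the AT1 neighbours of HFD cells. The means of the diets were 0.00747 units apart, compared to a median distance of 0.0346 units between an AT1 cell and the centre of all AT1 cells.

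**Figure D1:**
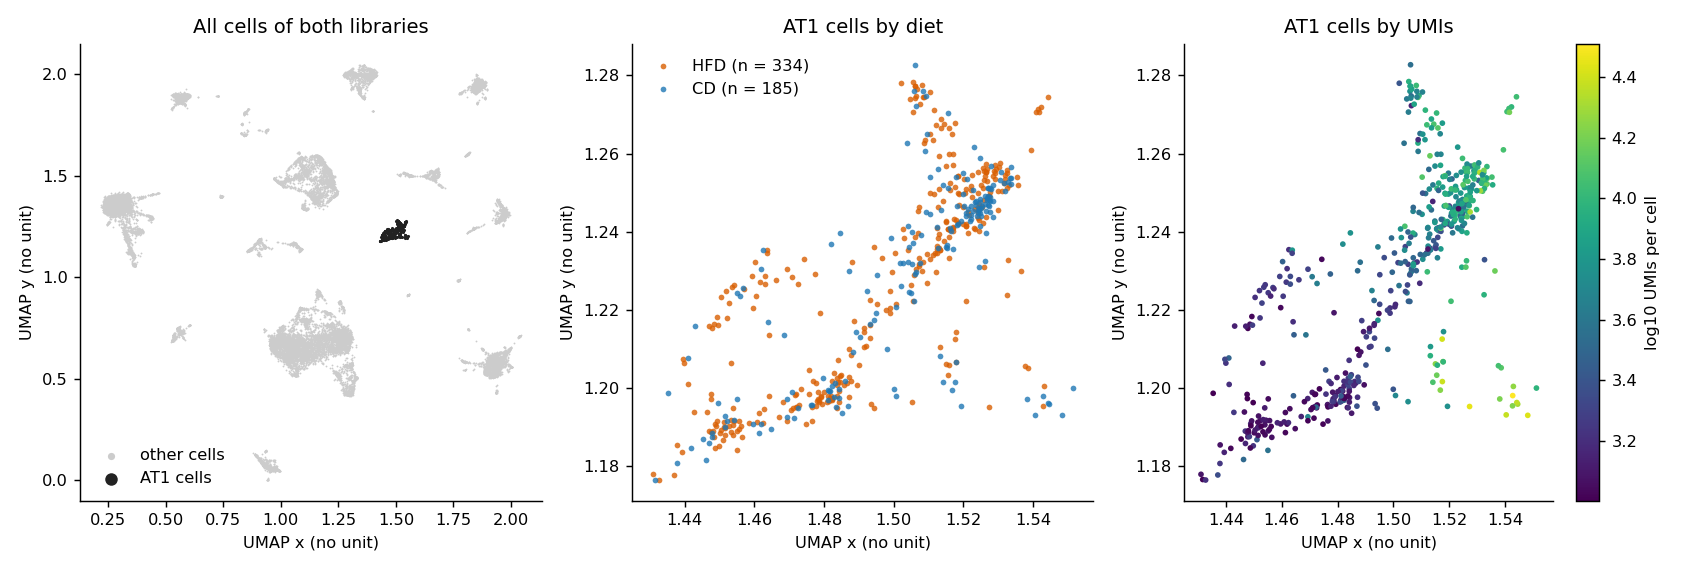
The left panel shows the UMAP positions of all 18397 cells with the 519 AT1 cells in black, the middle panel the AT1 cells by diet and the right panel the same cells coloured by log10 UMIs. AT1 cells form a separate island in which CD and HFD cells lie among each other, and UMIs per cell rise from the lower left to the upper right, apart from most of the deepest cells, which lie at the lower right.

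Position within the island went with depth. The UMI count of a cell correlated with its x position at a Spearman's rho of 0.79 over the 185 CD cells and 0.81 over the 334 HFD cells, and with its y position at 0.53 and 0.73. The mitochondrial percent had correlations of 0.02 in CD and -0.03 in HFD with x, and of 0.17 and 0.12 with y. These values are a description across cells that share a library and an embedding built from the same UMIs.

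From the lowest to the highest UMI counts, the cells moved along the island. Those with 1000 to 2000 UMIs had a median x of 1.47 in both libraries, with quartiles of 1.45 and 1.48. Cells with 8000 to 16000 UMIs had a median x of 1.53 in both libraries and lay higher, at a median y of 1.25 compared to 1.20. Most of the few cells with 16000 UMIs or more lay off this path, with a median x of 1.54 in CD and 1.53 in HFD but a median y of 1.20 in both, in scattered spots below the main body.

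Neighbouring AT1 cells also had similar depth. The Spearman's rho between a cell's UMIs and the median UMIs of its neighbours was 0.78 in CD and 0.84 in HFD. It ranked first of 16 types in CD and first of 17 types in HFD, ahead of fibroblasts at 0.74 and 0.81, while AT2 cells had 0.53 and 0.52. Within AT1 cells the same measure was lower for mitochondrial percent than for UMIs, at 0.31 in CD and 0.45 in HFD. It ranked 5 of 16 types in CD and 2 of 17 in HFD, above AT2 cells at 0.19 and 0.27. The ranked types held as few as 30 cells in CD and 33 in HFD. Basophils, with 29 cells in CD, were not ranked there. The part of cell number and of the spread of UMIs within a type in these ranks was not tested.

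When the island was divided at the middle of its x range, a line chosen after the layout had been seen, the left side held 55 CD and 137 HFD cells. Left-side cells had a median UMI count of 1346 (1228 to 1576) for CD and of 1425 (1318 to 1607) for HFD, and right-side cells one of 5758 (4627 to 6601) and 6261 (5454 to 7243). The left side made up 29.7% of CD AT1 cells (23.2 to 36.9) and 41.0% of HFD AT1 cells (35.7 to 46.5). As a share of the library, the left side was 2.28 times as large in HFD (1.66 to 3.18) and the right side 1.39 times (1.11 to 1.75). Both sides were larger in HFD, and as the line was drawn on the layout itself, nothing was read from the difference between these ratios.

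The UMI counts of AT1 cells covered a wide range in both libraries. In CD they ran from 1007 to 32326 with a median of 3867 (3295 to 4707), and in HFD from 1008 to 28280 with a median of 2917 (2416 to 3773). The lower and upper quartiles were 1764 and 7204 in CD and 1553.5 and 7315 in HFD. As the lower end of both ranges lay at the limit on UMIs, nothing was read from their overlap. The ratio of medians of 0.754 had an interval that included 1 (0.513 to 1.15). Its direction turned with the lower limit, to 1.03 for cells with at least 2000 UMIs and 1.16 (0.902 to 1.53) with at least 3000.

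The spread of UMIs within AT1 cells was the widest of the 17 cell types in each library. The upper quartile was 4.08 times the lower in CD and 4.71 times in HFD, compared to 2.73 and 4.04 in fibroblasts, the next type in both. For AT2 cells this ratio was 1.64 in CD and 1.75 in HFD, and for ciliated cells 2.50 and 2.08. From the 10th to the 90th percentile, AT1 counts rose 8.87-fold in CD and 9.73-fold in HFD, again the widest of all types, with alveolar macrophages close behind in HFD at 9.34-fold.

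**Figure D2:**
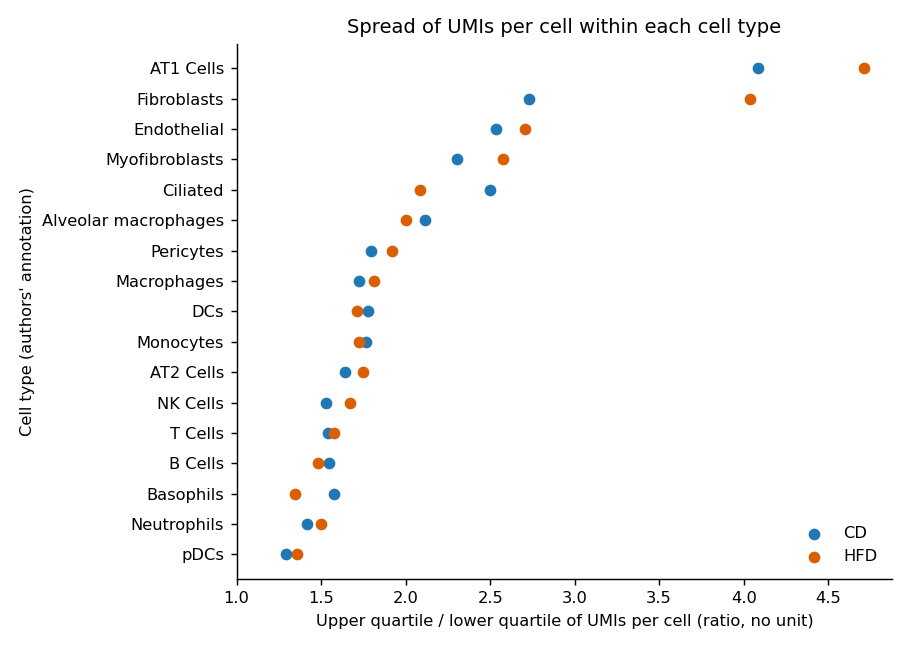
Each point is the ratio of the upper to the lower quartile of UMIs per cell for 1 cell type in 1 library (x axis, no unit), with the cell types on the y axis. AT1 cells have the highest ratio in CD (4.08) and in HFD (4.71).

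AT1 cells had fewer UMIs than the other epithelial cells. Their median was 0.354 times that of AT2 cells in CD (0.291 to 0.456) and 0.234 times in HFD (0.185 to 0.315). Relative to ciliated cells it was 0.391 in CD (0.266 to 0.745, 31 ciliated cells) and 0.237 in HFD (0.171 to 0.380, 52 ciliated cells). Among the 17 types, AT1 cells ranked 10th by median UMIs in CD and 13th in HFD, whereas AT2 cells ranked first and second.

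AT1 cells made up 2.41% of all UMIs in CD and 3.19% in HFD. A small number of deep cells supplied much of this material. In CD the 18 deepest AT1 cells held 32.4% of all AT1 UMIs, and in HFD the 33 deepest held 29.2%. Cells with fewer than 2000 UMIs supplied 7.06% of AT1 UMIs in CD and 11.2% in HFD, although they were 28.6% (22.3 to 35.7) and 38.6% (33.4 to 44.1) of the AT1 cells.

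The difference between the diets in AT1 share was then followed across UMI bands. Between 1000 and 2000 UMIs lay 53 AT1 cells in CD and 129 in HFD, which is 2.84% (2.14 to 3.70) and 6.51% (5.47 to 7.69) of the cells of that band. As a share of the library, this lowest band was 2.23 times as large in HFD (1.61 to 3.13), the highest ratio of the 8 types with at least 20 cells there in each library. Fibroblasts followed with 1.69 (1.41 to 2.04), and endothelial cells had 1.07 (0.968 to 1.18).

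The lowest band accounted for 0.740 of the 1.37 points by which the AT1 share was higher in HFD, or 53.9% of it. Between 2000 and 4000 UMIs the CD library held 41 and the HFD library 59 AT1 cells, and the library shares had a ratio of 1.32 (0.870 to 2.01). The band from 4000 to 8000 UMIs held 51 and 74 cells, with a ratio of 1.33 (0.917 to 1.94). In these middle bands the intervals included 1.

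From 8000 to 16000 UMIs the AT1 cells were again more frequent in HFD. The CD library held 29 and the HFD library 66 AT1 cells of this depth, and their library shares had a ratio of 2.08 (1.33 to 3.35). It added 0.357 points, or 26.0% of the difference. At 16000 UMIs or more the order turned, with 11 cells for CD, 6 for HFD and a ratio of 0.499 (0.152 to 1.47), an interval that included 1. The HFD library had more cells of this depth in all, 398 compared to 233. Of these, AT1 cells made up 1.51% in HFD (0.555 to 3.25) and 4.72% in CD (2.38 to 8.29), at a ratio of 0.319 (0.0970 to 0.942).

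**Figure D3:**
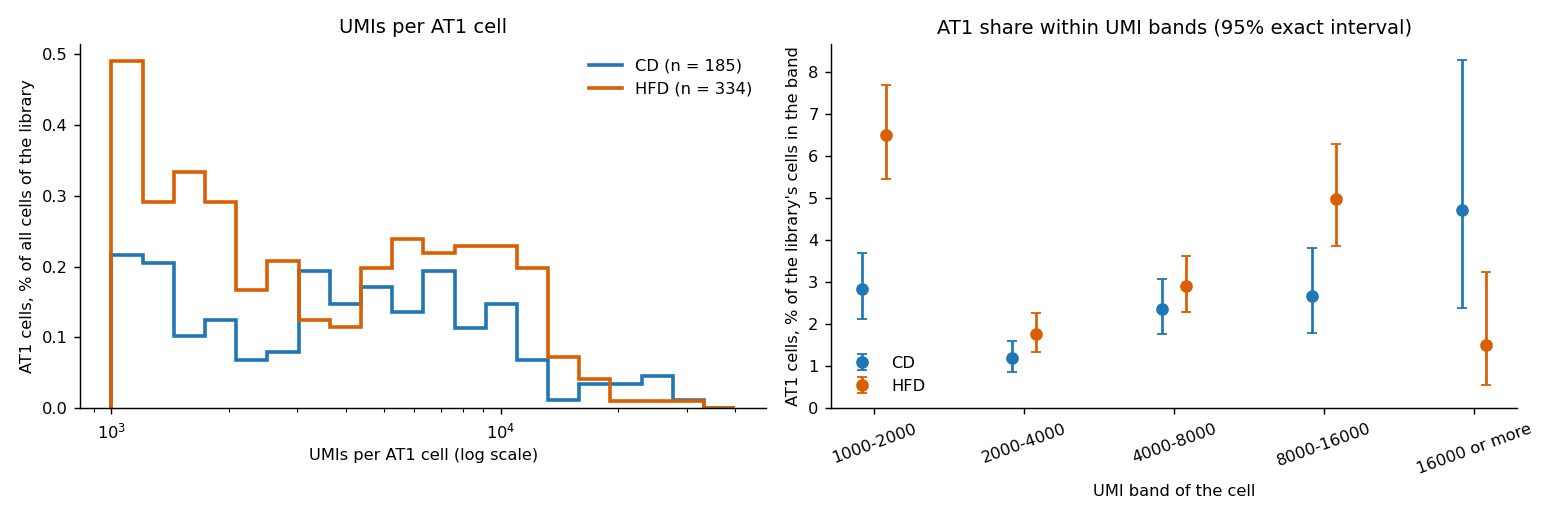
The left panel shows the distribution of UMIs per AT1 cell (log x axis) as a percent of all cells of the library, and the right panel the AT1 percent among the cells of each UMI band with 95% exact intervals, CD in blue and HFD in orange. Both libraries have AT1 cells at the lower limit and a second broad rise above 4000 UMIs, and HFD lies above CD between 1000 and 2000 UMIs (6.51% compared to 2.84%).

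Detected genes per AT1 cell ran from 526 to 6949 in CD, with a median of 1734 (1522 to 2018), and from 507 to 6178 in HFD, with a median of 1432.5 (1218 to 1773). Nothing was read from the overlap of these ranges either, as detected genes rise with UMIs and UMIs had a lower limit. The ratio of medians was 0.826 (0.604 to 1.16). As for UMIs, its direction turned with the lower limit, to 1.11 for cells with at least 2000 UMIs and 1.12 with at least 3000. The spread between quartiles was 2.98-fold in CD and 3.17-fold in HFD, the widest of the 17 types for this measure too.

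At matched depth the diets were close. Between 1000 and 2000 UMIs the median AT1 cell had 766 genes (688 to 802) in CD and 759 (716 to 808) in HFD. The ratio of HFD to CD was 0.991 (0.893 to 1.17) in this band, 0.909 (0.808 to 1.10) in the next and 1.05 (0.926 to 1.21) from 4000 to 8000 UMIs. Their weighted mean over 4 bands was 1.01, compared to 0.826 without regard to depth.

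From 8000 to 16000 UMIs the medians lay further apart, at 3196 genes (3100 to 3322) in CD and 3495.5 (3341 to 3622) in HFD, a ratio of 1.09 (1.01 to 1.17). HFD cells of this band also had more UMIs, with a median of 10510.5 compared to 9557 in CD. The part of that depth difference in the gene number was not tested.

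AT1 cells had a higher median of detected genes than AT2 cells with similar UMI counts, and from 4000 to 16000 UMIs a lower one than ciliated cells. From 4000 to 8000 UMIs the median in CD was 2232 genes (2063 to 2412) in AT1 cells and 1982 (1874 to 2123) in AT2 cells, at a ratio of 1.13 whose interval included 1 (0.972 to 1.29). In HFD it was 2350.5 (2234 to 2499) and 1923.5 (1773 to 2053), at a ratio of 1.22 (1.09 to 1.41). AT1 cells ranked first in this band among the 15 types in CD and the 14 types in HFD that had at least 20 cells. Ciliated cells, with 9 cells in each library, were not ranked and had medians of 2332 (1964 to 2848) and 2567 (2345 to 3011). Their median UMIs were 4975 in CD and 5969 in HFD, compared to 5779 and 5604 in AT1 cells.

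The same order held from 8000 to 16000 UMIs, with ratios of AT1 to AT2 of 1.10 (1.05 to 1.19) in CD and 1.16 (1.09 to 1.23) in HFD, although AT2 cells had the higher median UMIs within the band (11340.5 and 12191). The AT1 rank there was 4 in each library. Ciliated cells of this band had medians of 3610 genes (3285 to 4179, 13 cells) in CD and 3778 (3574 to 4033, 26 cells) in HFD. Both lay above the AT1 medians, with intervals that overlapped theirs. The ciliated cells also had the higher median UMIs, at 11090 in CD and 11062.5 in HFD compared to 9557 and 10510.5. Between 2000 and 4000 UMIs the ratios of AT1 to AT2 were 1.30 (0.976 to 1.61) and 1.17 (0.925 to 1.32), with intervals that included 1. AT1 cells of this band had higher median UMIs than AT2 cells in CD (3084 compared to 2894) and lower ones in HFD (2727 compared to 2981). In that band AT1 cells ranked 4 of 13 types in CD and 5 of 11 in HFD. Below 2000 UMIs there were only 16 and 17 AT2 cells, and no ratio was formed. The AT1 rank was 5 of 9 types in CD and 6 of 9 in HFD at this depth.

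**Figure D4:**
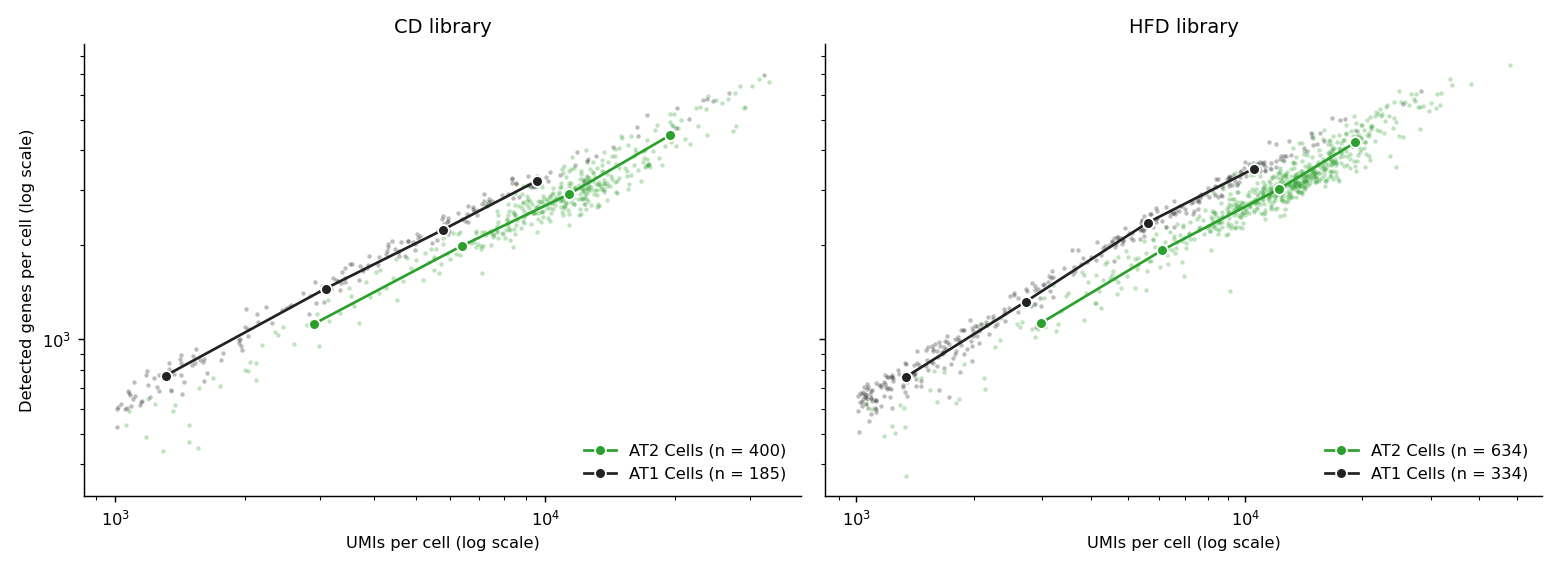
Detected genes (log y axis) are plotted against UMIs (log x axis) for single AT1 cells in black and AT2 cells in green, with CD on the left and HFD on the right and lines joining the medians of the UMI bands with at least 20 cells. The AT1 line lies above the AT2 line over the shared range of depth in both libraries.

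Mitochondrial UMIs made up a median of 3.32% (2.82 to 3.61) in CD AT1 cells and 3.60% (3.29 to 3.83) in HFD AT1 cells. They ran from 0 to 18.7% in CD and from 0 to 19.5% in HFD. The study's methods set an upper limit on this percent, and the highest value of any cell was 19.9% in both libraries. As both ends were limited beforehand, nothing was read from the overlap of these ranges. The ratio of the medians was 1.08 (0.913 to 1.36). In AT2 cells the medians were 5.65% (5.40 to 5.90) and 5.63% (5.38 to 5.84), so that the AT1 median was 0.588 times the AT2 median in CD (0.478 to 0.668) and 0.638 times in HFD (0.563 to 0.713). Relative to ciliated cells the AT1 median was 0.598 in HFD (0.444 to 0.741) and 0.843 in CD, where the interval included 1 (0.448 to 1.20).

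At matched depth AT1 cells were below AT2 cells from 2000 to 16000 UMIs. Between 2000 and 4000 UMIs AT1 cells had 3.59% (1.96 to 4.80) in CD compared to 9.11% (5.46 to 13.1) in 22 AT2 cells, and 3.52% (2.45 to 5.16) in HFD compared to 12.1% (5.76 to 17.3) in 26. From 4000 to 8000 UMIs AT1 cells had 3.47% (2.92 to 4.20) in CD compared to 6.51% (5.78 to 7.07) in AT2 cells. In HFD the values were 3.79% (3.37 to 4.22) and 7.83% (7.28 to 9.86). From 8000 to 16000 UMIs they were 3.24% (2.88 to 4.12) and 5.67% (5.52 to 5.99) in CD, and 3.62% (3.20 to 3.93) and 5.54% (5.26 to 5.84) in HFD. In each of these 6 pairs the intervals did not overlap. Between 1000 and 2000 UMIs, where there were only 16 and 17 AT2 cells, AT1 cells had the higher median in CD (1.87% compared to 0.770%) and the lower one in HFD (3.07% compared to 4.52%).

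A tail of AT1 cells had almost no mitochondrial UMIs. Under 1% lay 26 AT1 cells from CD, or 14.1% (9.39 to 19.9), and 49 from HFD, or 14.7% (11.1 to 18.9). For AT2 cells the shares were 2.75% (1.38 to 4.87) in CD and 1.42% (0.651 to 2.68) in HFD, and for ciliated cells 3.23% (0.0816 to 16.7) and 1.92% (0.0487 to 10.3). The AT1 rank for this share was 3 of 17 types in both libraries. These shares were not matched for depth. Between 1000 and 2000 UMIs lay 53 of 185 AT1 cells in CD and 129 of 334 in HFD. Of the AT2 cells, only 16 of 400 and 17 of 634 lay there. Their median mitochondrial percent was 0.770% (0.0675 to 11.0) in CD and 4.52% (0.510 to 7.29) in HFD. At matched depth the shares under 1% were not compared with those of AT2 cells.

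The tail thinned out with depth. Of the AT1 cells with 1000 to 2000 UMIs, it held 28.3% for CD (16.8 to 42.3) and 23.3% for HFD (16.3 to 31.5). Between 2000 and 4000 UMIs it held 19.5% (8.82 to 34.9) and 20.3% (11.0 to 32.8), and from 4000 to 8000 UMIs 5.88% (1.23 to 16.2) and 9.46% (3.89 to 18.5). At 8000 UMIs or more it held 0 of 40 CD cells, which allows a share of up to 8.81%, and 0 of 72 HFD cells, which allows up to 4.99%.

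Cells with over 10% mitochondrial UMIs were also most frequent at low depth. They were 15.1% of AT1 cells in the lowest band in CD (6.75 to 27.6) and 14.0% in HFD (8.48 to 21.2), compared to 7.03% (3.79 to 11.7) and 8.68% (5.89 to 12.2) of all AT1 cells. The lowest band thus held most of both extremes. Its median was 1.87% (1.52 to 3.67) in CD and 3.07% (2.01 to 4.43) in HFD, a ratio of 1.64 whose interval included 1 (0.549 to 2.91). From 2000 to 16000 UMIs this ratio lay between 0.981 and 1.12. At 16000 UMIs or more the medians were 2.47% (1.43 to 4.54, 11 cells) in CD and 3.94% (1.53 to 6.36, 6 cells) in HFD. No ratio of medians was formed from so few cells.

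**Figure D5:**
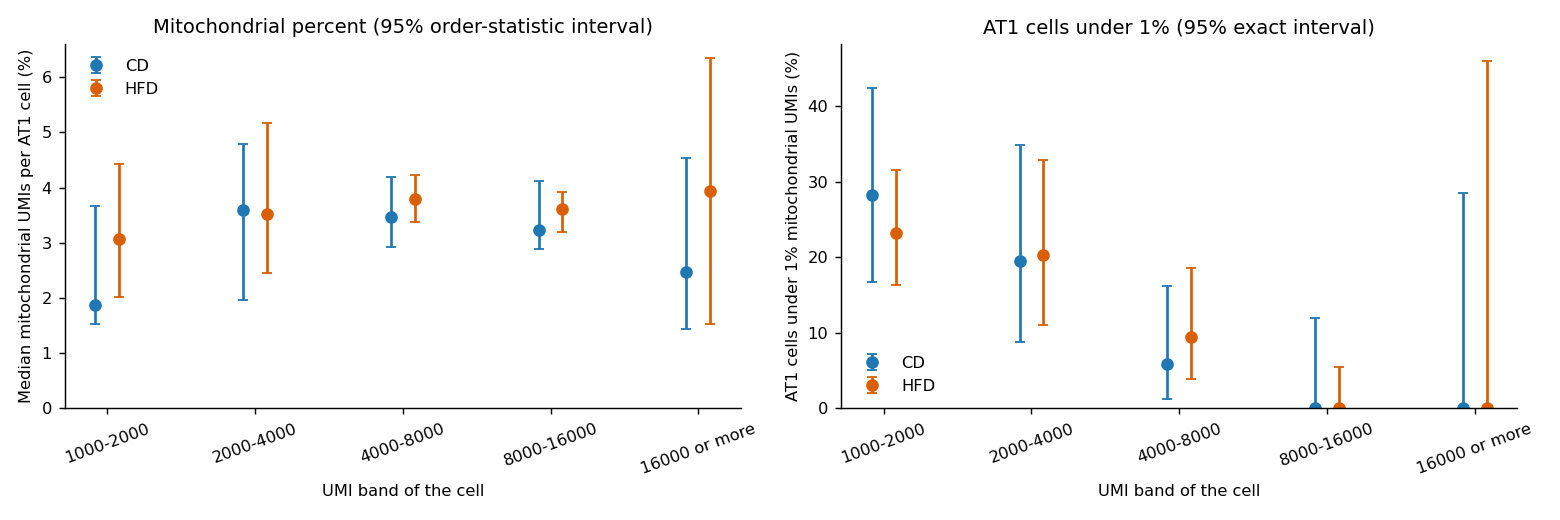
The left panel shows the median mitochondrial percent of AT1 cells per UMI band with order-statistic intervals, and the right panel the percent of AT1 cells under 1% with exact intervals, CD in blue and HFD in orange. The medians of the diets overlap in every band, and the share under 1% goes from 28.3% in CD and 23.3% in HFD to 0 at 8000 UMIs or more.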

How the data were processed

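Per the study's methods, the authors aligned the reads to mouse GRCm38.p6 (mm10) with Cell Ranger, merged both libraries in Seurat, converted them for Monocle, filtered cells, computed the UMAP, clustered cells on its plane and named the clusters by hand. The submitters' processing notes name Seurat 4.1.0. The table deposited by the authors gives raw counts of UMIs and of detected genes per cell, the percent of mitochondrial UMIs, and UMAP coordinates, which are a score without a unit. Annotated positions came from GENCODE M21 on the same assembly.

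Shares were given exact (Clopper-Pearson) 95% intervals, ratios of shares conditional exact binomial intervals, and medians order-statistic intervals. The interval of a ratio of medians used the outer bounds of both. As cells could not be thinned, depth was matched in UMI bands that double in width. Ratios of medians and ranks of types within a band needed at least 20 cells of each group. AT1 shares of a band and their ratios were formed at any cell number. Neighbours were the 15 nearest cells on the map. The intervals of share ratios and of medians and the gene ratio at matched UMIs were tested on simulated cells with known answers. The other calculations were not. No doublet caller was run. Doublets were addressed only by leaving out the 1% of cells with the most UMIs.

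The AT1 cells, the gene lists and the comparisons were chosen with earlier results of these data known. The 5 AT1 markers were always named, and 25 other AT1 genes were counted by flag. AT2 and ciliated cells were the types compared with AT1 cells. Alternatives were limits on UMIs and mitochondrial percent, other denominators, bands of 1.5-fold width and 30 neighbours. Scripts ran in Python 3.11.15, using scipy 1.17.1 for the intervals, pandas 2.3.3 and numpy 2.4.6 for the tables, and matplotlib 3.10.9 for the plots.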

Additional observations from a re-analysis of the deposited data

How the results depend on the processing

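Of 42 alternatives, 9 could not move their result, because all AT1 cells formed 1 cluster and had only AT1 neighbours. For the same reason, using the largest AT1 cluster alone or leaving out AT1 cells without an AT1 neighbour keeps every AT1 cell. Leaving out AT1 clusters in turn removes every AT1 cell and gives no value. Leaving out the 1% of cells with the most UMIs could not move the gene ratio at matched UMIs (1 alternative), because these cells all lay above the bands used for it. An alternative counted as keeping its result if its value lay inside the interval of the main result. A wide interval is hard to leave, so some ratios that changed sides of 1 counted as kept. Of the other 32, 30 kept their result by this rule and 2 moved it. Both counted only cells with at least 3000 UMIs, which left 116 CD and 164 HFD AT1 cells. The ratio of AT1 shares was then 1.23 (0.961 to 1.57) instead of 1.65, and the ratio of median UMIs 1.16 (0.902 to 1.53) instead of 0.754. With at least 2000 UMIs these ratios were 1.41 and 1.03. The ratio of median genes changed sides of 1 as well, from 0.826 to 1.11 and 1.12 with at least 2000 and 3000 UMIs. Counting only cells with at least 1% mitochondrial UMIs was chosen after seeing the data and gave a ratio of shares of 1.63. Cell number limits the bands, and the highest held only 11 and 6 AT1 cells. No paired analysis was possible because only 1 library stood for either diet.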
